A study of Mus musculus with 6 samples.

Results

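The motor neuron identity and trophic receptor genes considered here are Chat, Ache, Isl1, Calca, Ret and Gfra1. A gene was measured when the platform annotation gave a probe set its symbol and no other, and the probe set with the highest mean intensity stands for the gene. Of these 6 genes, 4 had such a probe set, out of 8251 genes on the array with one. Ache, Isl1, Ret and Gfra1 each had 1 probe set. Chat and Calca had none in the annotation used and were not analysed here.

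Messenger RNA of mouse spinal cord was hybridised to 6 Affymetrix arrays, 1 for each of 3 genotypes at 2 ages. The G93A-SOD1 transgene codes for superoxide dismutase with the G93A substitution, which causes inherited amyotrophic lateral sclerosis in people. In WT-SOD1 mice the transgene codes for the unmutated enzyme, and nontransgenic mice have no SOD1 transgene. Each genotype was sampled at 110 and at 75 days of age. The strain label read B6SJL-G93A-SOD1H at 110 days and B6SJL-G93A-SOD1 at 75 days for the G93A-SOD1 mice. It read B6SJL-WT-SOD1 for the WT-SOD1 mice at 75 days and B6SJL for the nontransgenic mice at both ages, and no strain was used here for WT-SOD1 at 110 days. Each array held RNA of 4 spinal cords. According to the submitters, G93A-SOD1 mice had tremor and partial paralysis at 110 days but no symptoms at 75 days, and WT-SOD1 mice stayed healthy. The WT-SOD1 and nontransgenic arrays are therefore called disease-free. The promoter that drives each transgene and the sex of the mice are not given in the sources used here. In whole cord, fewer motor neurons and less RNA per motor neuron cannot be told apart.

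Spinal motor neurons signal to muscle with acetylcholine, which choline acetyltransferase, the product of Chat, makes and acetylcholinesterase, the product of Ache, breaks down. Isl1 encodes a LIM-homeodomain transcription factor that helps to set motor neuron fate in the embryo. Calca encodes calcitonin and, by alternative splicing, calcitonin gene-related peptide, which motor and sensory neurons release. Glial cell line-derived neurotrophic factor binds the co-receptor GFRα1, the product of Gfra1, and the pair then activates the receptor tyrosine kinase RET. None of these genes is restricted to motor neurons: sensory ganglia also use Isl1, Calca, Ret and Gfra1, and muscle and red blood cells also make acetylcholinesterase.

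Array medians lay between 77.7 and 80.9 intensity units, the deposited linear scale. Between 24.6% and 25.9% of the probe sets of an array lay at or under the floor of 31.0, the 25th percentile of all values. Tests covered the 6737 of 12422 probe sets whose brightest array lay above the pooled median, 79.7. The precision is limited by the number of arrays. Apart from the fit over both ages, the tests by G93A-SOD1 status take their spread from the differences between the WT-SOD1 and nontransgenic arrays. That spread is pooled over both ages and moderated by limma toward that of all probe sets. The single G93A-SOD1 array of each age is taken to have the same spread. In the fit over both ages, a G93A-SOD1 difference that changes with age also enters the spread. P-values thus measure how arrays of different genotype vary, since no group had a replicate. Cerebellar marker genes and bacterial spike-in controls set the WT-SOD1 110-day and nontransgenic 75-day arrays apart from the other 4. Their values stand beside the results they touch.

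Ache was the only one of the 4 measured genes with a signal well above the pooled median on every array. Ache read 597 at 110 days and 697 at 75 days in G93A-SOD1 cord. Against these stood 649 at 110 days and 822 at 75 days in WT-SOD1 cord, and 816 and 703 on the nontransgenic arrays at 110 and 75 days. The G93A-SOD1 array at 110 days was thus the lowest of the 6, while the one at 75 days lay within the disease-free range. Of all tested probe sets, 27% were also lower on the G93A-SOD1 110-day array than on all 4 disease-free ones. On each array Ache was brighter than 94.0% to 96.1% of all probe sets. Its whole range over the 6 arrays was 0.46 log2 units.

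Ret, the receptor tyrosine kinase of the GDNF family, was dim. Ret read 71.8 at 110 days and 60.2 at 75 days in G93A-SOD1 cord. At 110 and 75 days, WT-SOD1 cord gave 76.9 and 80.6, and nontransgenic cord gave 80.4 and 76.8. Both G93A-SOD1 arrays therefore lay below all 4 disease-free arrays. Of all tested probe sets, 15.6% showed the same order, so the order is common on these arrays. Ret lay above the pooled median on 2 arrays, WT-SOD1 at 75 days and nontransgenic at 110 days, by less than 1 unit each. It entered the tests only through these disease-free arrays.

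Gfra1, the GDNF co-receptor, lay under the pooled median on all 6 arrays and was not tested. Gfra1 read 70.2 at 110 days and 49.4 at 75 days in G93A-SOD1 cord, against 50.4 and 59.9 for WT-SOD1 cord and 61.2 and 58.6 for nontransgenic cord. The G93A-SOD1 cord thus gave the highest value of the 6 at 110 days and the lowest at 75 days. Of all 12422 probe sets, 2.54% showed this order. Values under the floor were first raised to it, so probe sets under it on all arrays could not show the order. With arrays scaled to 1 median, the 75-day value fell within the disease-free range, while the 110-day value stayed above it. Gfra1 and Ret code for the 2 parts of one receptor complex, and at 110 days they stood on opposite sides of the disease-free range.

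Isl1 gave no signal that could be ordered. Its intensity lay under the floor on every array, at 16.7 and 22.25 in G93A-SOD1 cord at 110 and 75 days, against 17.1 to 19.6 on the 4 disease-free arrays. This probe set therefore allowed no comparison between genotypes or ages.

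**Figure D1:**
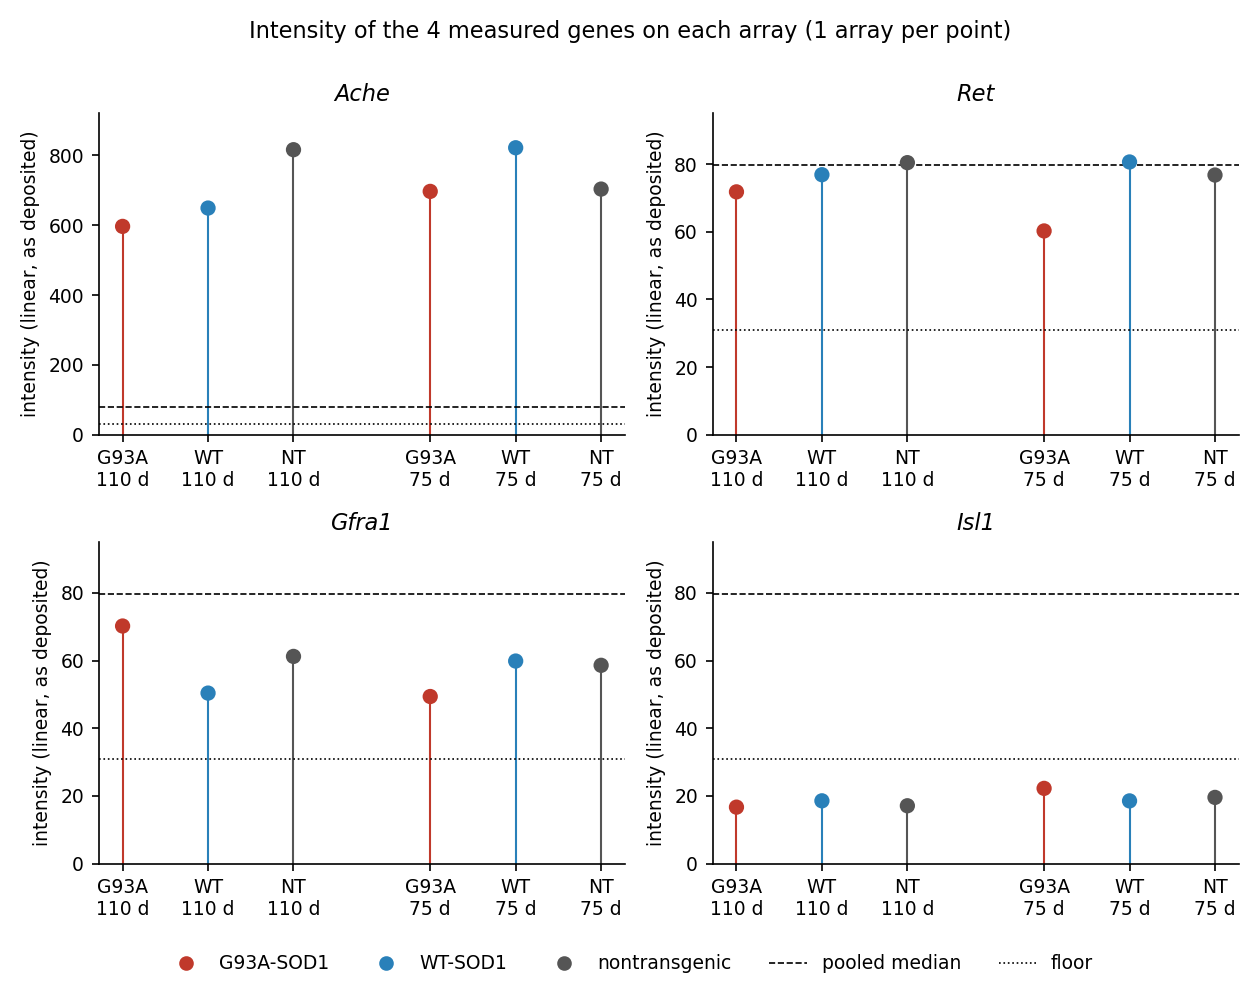
Intensity (linear scale, vertical axis) of Ache, Ret, Gfra1 and Isl1 on each of the 6 arrays, with 1 point on a stem for each genotype and age, the pooled median of 79.7 as a dashed line and the floor of 31.0 as a dotted line. Ache stands far above both lines, Ret close to the pooled median, Gfra1 between the lines and Isl1 under the floor.

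The comparison of G93A-SOD1 with disease-free cord at 110 days asked whether these genes differed in cord with symptoms. Neither tested gene passed limma with Benjamini-Hochberg adjustment over all 6737 probe sets, of which 1.51% were called in either direction and 0.134% as lower. The log2 difference of Ache was -0.29 ± 0.18 SE (adjusted p = 0.722), with a 95% interval from -0.72 to 0.14. For Ret the log2 difference was -0.13 ± 0.13 SE (adjusted p = 0.913), with an interval from -0.44 to 0.18. Both were below 0, and 0 of the 2 had an unadjusted p under 0.05, beside 693 of all 6737 probe sets. The Ache interval spans log2 differences on both sides of 0, so these arrays leave its direction unresolved.

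At 75 days, before symptoms, Ret had the lower value of the pair. Its log2 difference was -0.39 ± 0.13 SE (limma adjusted p = 0.495), with a 95% interval from -0.70 to -0.07. Because Ret passed the filter only through disease-free arrays, WT-SOD1 at 75 days among them, this interval is a description and lends no support to a lower level. With no filter on level the adjusted p of Ret was 0.345. In this comparison 0% of the 6737 probe sets passed after adjustment, and 664 had an unadjusted p under 0.05. For Ache the log2 difference was -0.13 ± 0.18 SE (adjusted p = 0.85). Over both ages together, with age as a term, Ret stood at -0.26 ± 0.10 SE (adjusted p = 0.313) and Ache at -0.21 ± 0.13 SE (adjusted p = 0.501). Of all probe sets 0% passed that fit, and 942 had an unadjusted p under 0.05.

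Whether the difference changed with age was tested directly. The change from 75 to 110 days was 0.25 ± 0.19 SE log2 units for Ret (adjusted p = 0.993) and -0.16 ± 0.26 SE for Ache (adjusted p = 0.998), while 0.416% of all probe sets passed. Between the G93A-SOD1 arrays at 110 and 75 days, Ret differed by 0.25 (adjusted p = 0.653) and Ache by -0.22 (adjusted p = 0.783), and 1.1% of probe sets passed. In disease-free cord at 110 against 75 days, Ret differed by -0.00 and Ache by -0.06 (adjusted p = 0.999 and 0.998), with 0.0148% of probe sets called. Ret thus gave nearly the same mean at both ages in disease-free cord, with a 95% interval from -0.26 to 0.25.

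Wild-type SOD1 was set against no transgene on the 4 disease-free arrays. Ret differed by 0.00 ± 0.19 SE and Ache by -0.05 ± 0.19 SE (adjusted p = 1 for each), with an SE that limma set from all probe sets alike, and 0.104% of probe sets were called. The intervals ran from -0.38 to 0.38 for Ret and from -0.43 to 0.33 for Ache. The disease-free Ache values paired across genotype and age, 822 on WT-SOD1 at 75 days with 816 on nontransgenic at 110 days, and 649 on WT-SOD1 at 110 days with 703 on nontransgenic at 75 days. The order of the genotypes was therefore opposite at the 2 ages.

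**Figure D2:**
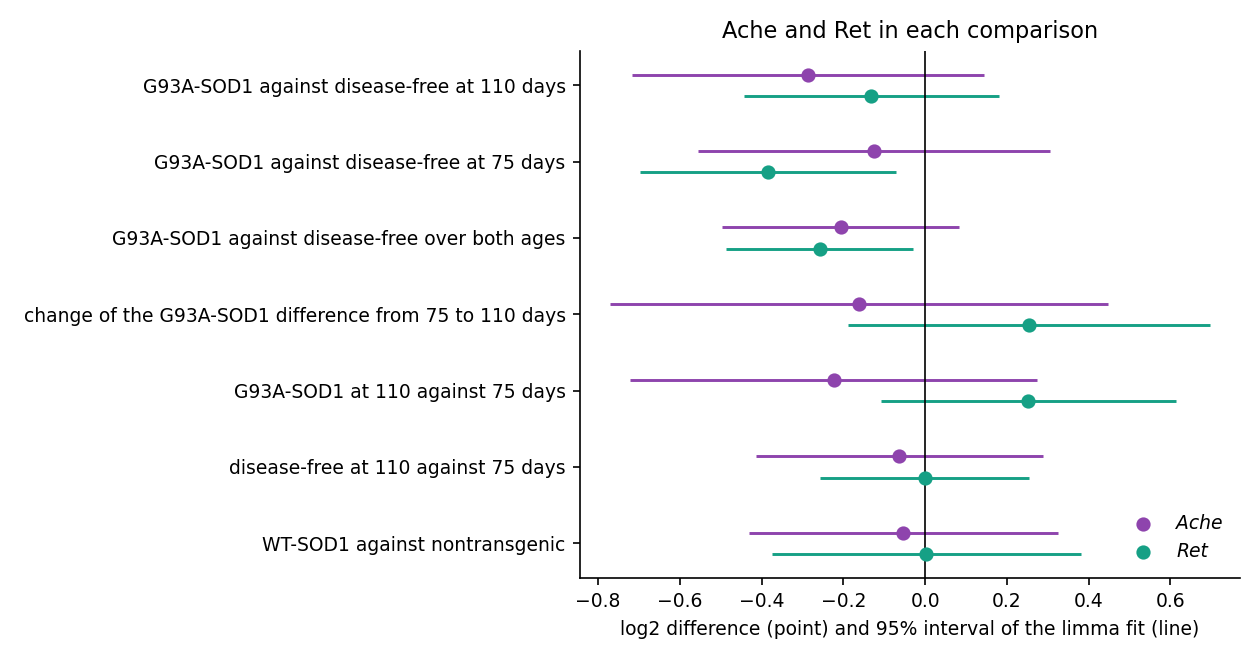
Log2 difference (horizontal axis, points) with the 95% interval of the limma fit (lines) for Ache and Ret in 7 comparisons, where a point left of 0 is lower in the group named before "against". Every Ache interval includes 0. The Ret intervals at 75 days and over both ages lie below 0, for a gene that passed the filter only through disease-free arrays and had adjusted p-values of 0.495 and 0.313.

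The same pairs of disease-free arrays differed in 2 measures of the arrays themselves. The mean of 18 bacterial spike-in probe sets was 405 (110 days) and 351 (75 days) for G93A-SOD1. It was 834 on WT-SOD1 at 110 days and 631 on nontransgenic at 75 days, against 375 on WT-SOD1 at 75 days and 457 on nontransgenic at 110 days. The summed intensity of the 10 measured cerebellar marker genes was 1232 and 1193 in G93A-SOD1 cord at 110 and 75 days. It was 3607 on WT-SOD1 at 110 days and 3094 on nontransgenic at 75 days, but 1593 and 2064 on the other disease-free arrays, WT-SOD1 at 75 days and nontransgenic at 110 days. Gabra6, which encodes a GABA receptor subunit of cerebellar granule cells, read 21.3 and 25.2 in G93A-SOD1 cord against 44.8 to 429 on the disease-free ones, while Pcp4 was the 1 marker under the floor on all 6. The disease-free arrays with lower Ache were thus those with more spike-in and cerebellar signal. With a term that marks the WT-SOD1 110-day and nontransgenic 75-day arrays, called the spike-in term, the Ache log2 difference was -0.43 at 110 days (adjusted p = 0.129) and -0.26 at 75 days (adjusted p = 0.283). Without the WT-SOD1 110-day array it was -0.45 at 110 days (adjusted p = 0.105), and without the nontransgenic 110-day array -0.12 (adjusted p = 0.819). At 75 days, leaving out the nontransgenic array of that age gave -0.24, and leaving out the WT-SOD1 array gave -0.01. With single disease-free arrays left out, Ret ranged between -0.16 and -0.10 at 110 days and between -0.42 and -0.35 at 75 days. What part the spike-in and cerebellar signal has in the Ache values was not tested further.

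**Figure D3:**
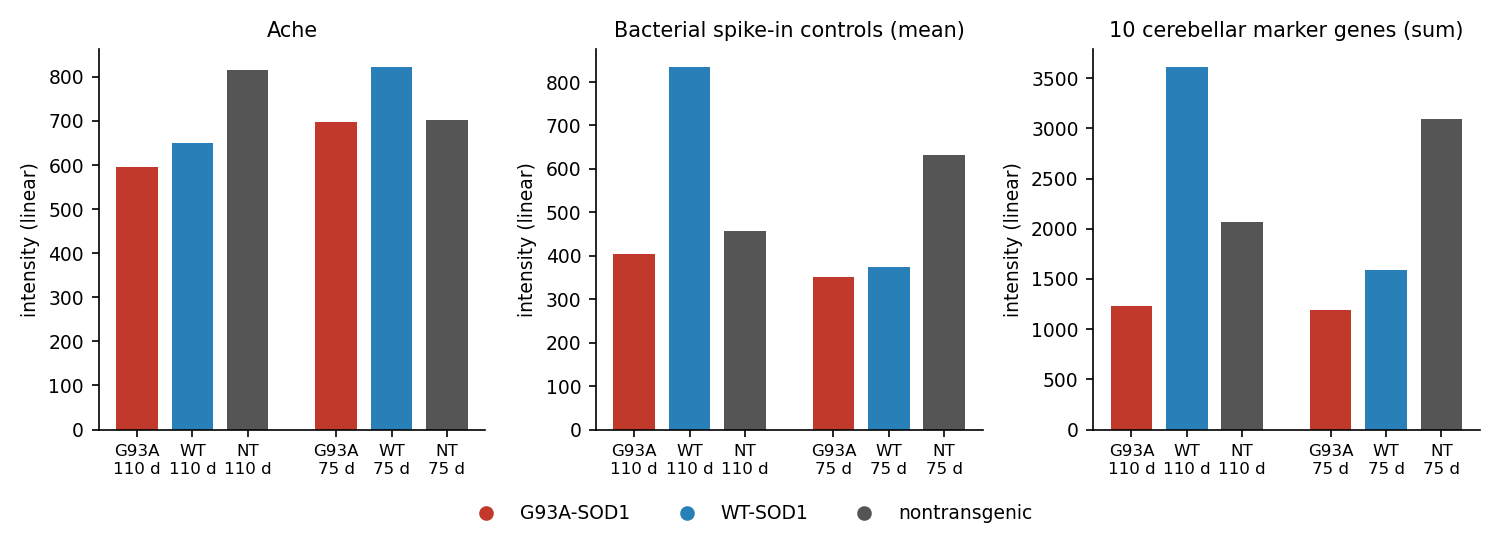
Intensity of Ache, the mean of 18 bacterial spike-in probe sets and the sum of 10 cerebellar marker genes (vertical axes, linear scale from 0) on each of the 6 arrays. Ache peaks at 822 for WT-SOD1 at 75 days and 816 for nontransgenic at 110 days, and the WT-SOD1 110-day and nontransgenic 75-day arrays hold most spike-in and cerebellar signal.

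Markers of the other tissues that use these genes were read on the same arrays. Of 19 sensory ganglion genes 8 had a probe set. This list includes Isl1, Calca and Ret themselves, and Prph, which is also on the motor neuron list. Scn10a, a sodium channel gene of pain-sensing neurons, lay under the floor on all arrays, as did Runx1 and Isl1. The 8 genes summed to 819 and 836 in G93A-SOD1 cord at 110 and 75 days. That was within the disease-free range of 820 to 940 at 75 days and just under it at 110 days. The 13 skeletal muscle genes summed to 1050 and 925 in G93A-SOD1 cord at 110 and 75 days. Their sums were 915 and 1527 in WT-SOD1 cord and 784 and 1018 in nontransgenic cord. The highest of these came from the array with the highest Ache, WT-SOD1 at 75 days. Chrna1, the acetylcholine receptor subunit gene of muscle, lay under the floor throughout. The 5 measured blood genes summed to 3540 and 5212 in G93A-SOD1 cord at 110 and 75 days. At these ages they summed to 4153 and 3998 in WT-SOD1 cord and to 4908 and 3732 in nontransgenic cord. At 110 days the G93A-SOD1 cord also held more glial signal. Of 12 tested microglia and macrophage genes 11 were called higher, beside 93 of all 6737 tested probe sets. The 13 measured ones summed to 7951 and 1957 in G93A-SOD1 cord at 110 and 75 days, against 1704 to 2012 in disease-free cord. Fcer1g lay under the floor throughout. Of 8 tested reactive astrocyte genes 7 were called higher at 110 days, and the 10 measured ones summed to 11839 and 5217, against 3710 to 4633. Aif1, Lyz2, Cst7 and Emp1 passed the filter only through the G93A-SOD1 110-day array, so their calls are given as a description. The part of these tissues and cells in the values of Ache, Ret and Gfra1 was not tested.

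The cholinergic genes around Ache gave no call. Of 26 listed genes 14 had a probe set and 10 were tested, of which 0 passed limma at 110 days. Of the 10, 1 had an unadjusted p under 0.05 at 110 days, beside 693 of all 6737 probe sets. The median log2 difference at 110 days was 0.02, beside -0.02 over all tested probe sets. Slc18a3, the gene of the vesicular acetylcholine transporter, lies inside the Chat gene in the RefSeq annotation. Slc18a3 read 160 at 110 days and 210 at 75 days in G93A-SOD1 cord, against 171 and 207 in WT-SOD1 cord and 193 and 190 on the nontransgenic arrays. Like Ache it was lowest of the 6 on the G93A-SOD1 110-day array, but at 75 days the G93A-SOD1 value was the highest. Its log2 differences were -0.18 at 110 days (adjusted p = 0.834) and 0.08 at 75 days (adjusted p = 0.882). Slc44a1, a choline transporter gene, had the list's largest difference at 110 days, 0.40 (adjusted p = 0.33).

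In the GDNF family, 10 of 11 listed genes had a probe set and 9 were tested. None passed at 110 or 75 days, and 0 and 1 had an unadjusted p under 0.05, the 1 being Ret. Over all 6737 probe sets these counts were 693 and 664. The median log2 difference was 0.02 at 110 days and 0.01 at 75 days, beside -0.02 and -0.04 over all tested probe sets. Among the ligands, Gdnf stood at 0.06 at 110 days (-0.053 with the nontransgenic array of that age left out, 0.18 with the WT-SOD1 array left out) and 0.21 at 75 days, and Nrtn, encoding neurturin, at 0.10 and 0.32. The brighter of 2 Gdnf probe sets read 91.2 and 100.1 in G93A-SOD1 cord at 110 and 75 days, against 80.8 to 94.6 on disease-free ones, and the other lay under the floor on all arrays. Gfra2, the neurturin co-receptor gene, read 181 and 174 in G93A-SOD1 cord against 164 to 183. Ncam1, encoding an adhesion molecule that also serves as a GDNF receptor, stood at -0.12 at 110 days and -0.38 at 75 days (adjusted p = 0.985 and 0.613). Its direction at 110 days turned with 1 array left out, to 0.15 without the nontransgenic array, against -0.39 without the WT-SOD1 array. Ncam1 is the largest departure of the family at 75 days beside Ret, and like Ret it lay below all 4 disease-free arrays on the G93A-SOD1 75-day array, at 274, as did 34.7% of tested probe sets. The other Ncam1 probe sets disagreed. One that can cross-hybridise also gave its lowest value there, 66.2 against 75.4 to 83.0 in disease-free cord, while the dimmest gave its highest, 36.9, and lay at or under the floor on 4 arrays.

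Calca itself was not analysed, but part of its receptor was measured. Calcitonin gene-related peptide acts through the receptor encoded by Calcrl together with the accessory protein encoded by Ramp1. Calcrl lay under the floor on all arrays. Ramp1 read 707 and 789 in G93A-SOD1 cord at 110 and 75 days, against 650 and 643 on the WT-SOD1 and 602 and 604 on the nontransgenic arrays. Both G93A-SOD1 values lay above all 4 disease-free ones, an order shown by 6.23% of tested probe sets. The log2 difference was 0.18 at 110 days (adjusted p = 0.822), 0.34 at 75 days (adjusted p = 0.496) and 0.26 over both ages (adjusted p = 0.302). Of the 4 tested genes of this list 0 passed in either comparison, with 0 at 110 days and 1 at 75 days at an unadjusted p under 0.05. All 6737 probe sets gave 693 and 664 at that threshold.

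Other trophic signals of motor neurons gave no call either. Of 11 listed neurotrophin genes 5 had a probe set and 3 were tested, Bdnf at -0.22, Ntrk3 at -0.20 and Maged1 at -0.20 log2 units at 110 days (adjusted p = 0.698, 0.783 and 0.779). Ntrk3, the neurotrophin-3 receptor gene, read 64.4 and 62.1 in G93A-SOD1 cord at 110 and 75 days, against 70.6 to 80.4 in disease-free cord. Ntrk3 passed the filter only through the nontransgenic 75-day array, so its order, shared by 15.6% of tested probe sets, and its test are given as a description. Of 9 tested genes of the CNTF, LIF, HGF, IGF and VEGF list 0 passed at 110 days. Beside 693 of all 6737 probe sets, 3 of these genes had an unadjusted p under 0.05. These were Nrp1, a VEGF and semaphorin co-receptor gene, at 0.73 (adjusted p = 0.0882), Lifr at -0.46 (adjusted p = 0.432) and Il6st at 0.43 (adjusted p = 0.303). Lifr and Il6st encode the 2 signalling chains of the LIF receptor, and the differences of their brightest probe sets had opposite signs. A dimmer Il6st probe set did not repeat the higher value. At 110 days it read 53.3 in G93A-SOD1 cord, 70.3 in WT-SOD1 cord and 52.6 in nontransgenic cord. Of the other Lifr probe sets, the brightest read 33.9, against 38.2 and 35.1, and the rest lay under the floor on all arrays. Nrp1 stood at 0.78 without the nontransgenic 110-day array and at 0.68 without the WT-SOD1 110-day array. With the spike-in term it stood at 0.65 and passed (limma adjusted p = 0.0336). That fit had 1 residual degree of freedom and called 266 of 6737 probe sets, beside 102 in the main fit.

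Transcription factors of the Isl1 class gave no call. Of 35 listed homeodomain and basic helix-loop-helix genes 25 had a probe set, 16 were tested and 0 passed at either age. At an unadjusted p under 0.05 were 1 at 110 days and 2 at 75 days, beside 693 and 664 of all 6737 probe sets. En1 was 1 of the 2 at 75 days. It passed the filter only through the G93A-SOD1 75-day array, as did Foxp1, Lhx3 and Tlx3. The tests of these genes are given as a description. Isl1, Lhx9, Neurog2 and Gata3 lay under the floor on all arrays. The largest difference at 110 days was that of Nkx6-2, an oligodendrocyte factor gene, at 0.54 (adjusted p = 0.151). Without the WT-SOD1 110-day array this difference was 0.50.

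Large motor neurons make neurofilament proteins in quantity. Of 11 tested genes on the list of other motor neuron markers 1 was called lower and 0 higher at 110 days, beside 0.134% of all probe sets called lower. In this list 10 had differences below 0, with a median of -0.36, beside -0.02 over all tested probe sets. The median is the value of Pvalb, which like Calb2 (-0.47) is not restricted to motor neurons. Nefm, the gene of the medium neurofilament chain, was the 1 call, at -0.82 ± 0.13 SE (adjusted p = 0.0301). Nefm read 571 and 955 in G93A-SOD1 cord at 110 and 75 days, against 900 to 1035 in disease-free cord. Nefm lost the call with no filter on level (adjusted p = 0.174), with a floor at the 40th percentile (0.0594), with arrays scaled to 1 median (0.0597) and against WT-SOD1 arrays only (0.091). Nefh stood at -0.72 and Nefl at -0.53 (adjusted p = 0.112 and 0.268). Nefl read 431 and 337 in G93A-SOD1 cord at 110 and 75 days, against 505 to 661 in disease-free cord. At 75 days its log2 difference was -0.71. Prph stood at -0.18 (adjusted p = 0.878), from a probe set that can cross-hybridise. At 110 days the other Prph probe set read 54.0 in G93A-SOD1 cord, against 59.5 in WT-SOD1 and 84.3 in nontransgenic cord. It passed the filter only through that nontransgenic array. General neuron markers had the same median as the other motor neuron markers, -0.36, with 11 of 12 below 0 and 0 calls. Of the 12, 5 had an unadjusted p under 0.05, beside 693 of all 6737 probe sets. At 75 days the medians were -0.08 and -0.16, and neither list had a call. Vipr2 in the motor neuron list and Syt1 in the general neuron list passed the filter only through disease-free arrays. So did Gabra6 and Car8 among the cerebellar markers, and these genes are given as a description. The cerebellar markers had a median of -1.42 at 110 days and -0.86 at 75 days, beside -0.02 and -0.04 over all tested probe sets. Of the 7 tested, 6 lay below 0, with 0 calls at each age. At 110 days the microglia and macrophage markers had a median of 2.25 and the reactive astrocyte markers one of 1.60. Both lists include genes that passed the filter only through the G93A-SOD1 110-day array. The part of these cells in the neuronal values was not tested, nor was the difference between Ache and the neuronal genes.

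**Figure D4:**
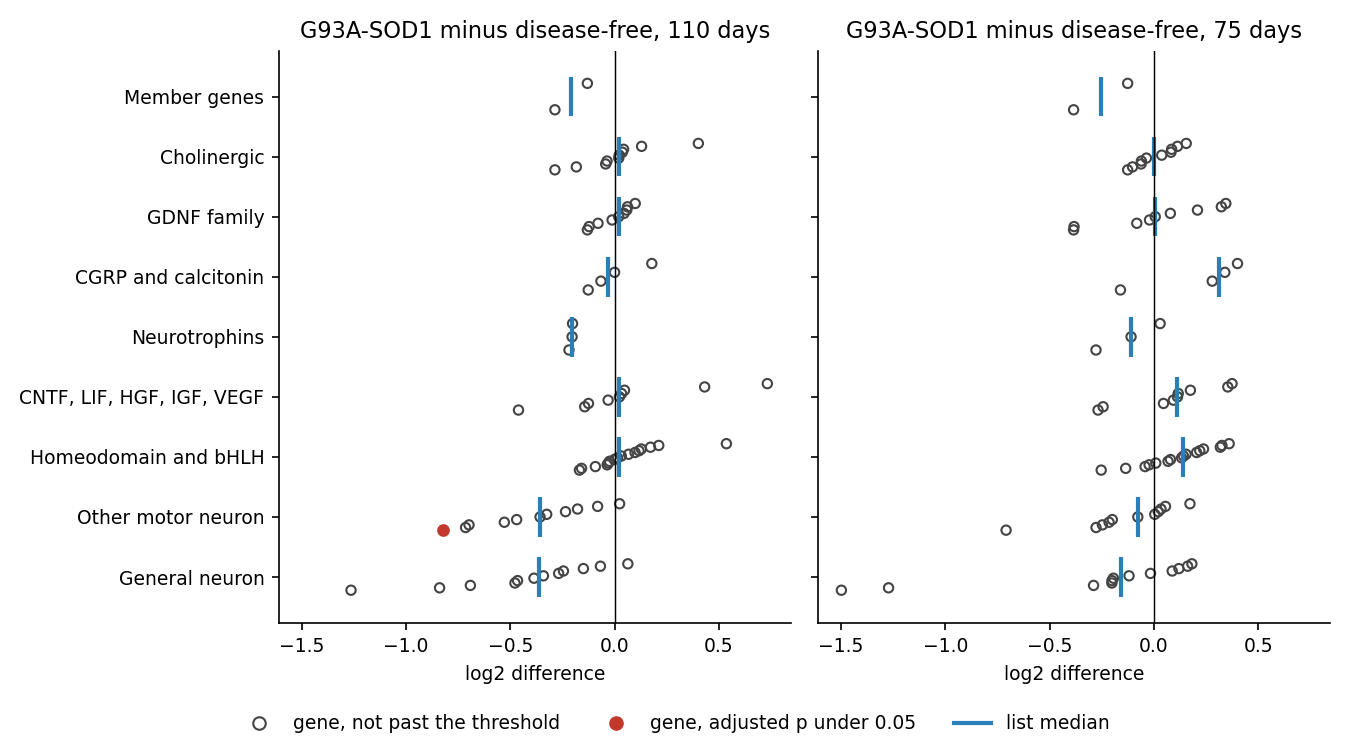
Log2 difference of G93A-SOD1 minus disease-free cord (horizontal axis) at 110 days (left) and 75 days (right) for each tested gene of 9 lists, with list medians as blue bars and genes past the threshold filled red. Nefm at 110 days is the only filled point, and the medians of the 2 neuronal marker lists lie at -0.36 at 110 days.

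Genes whose levels followed these most closely over the 6 arrays were found by Pearson correlation of log2 intensity, as a description across genes that share the same arrays. Ache was followed most closely by Clcn5 (r = 0.986), Mapk6 (r = 0.970) and Dhx30 (r = 0.964). Clcn5, a chloride transporter gene, read 128 and 147 in G93A-SOD1 cord at 110 and 75 days, against 139 and 173 on the WT-SOD1 and 183 and 153 on the nontransgenic arrays. For Ret the closest were Snx13 (r = 0.995), Mgll (r = 0.980) and Gps1 (r = 0.979). For Gfra1 they were Hif1a (r = 0.987), Tjp1 (r = 0.977) and Anxa4 (r = 0.977). Hif1a, the gene of a hypoxia-responsive factor, read 1419 at 110 days and 842 at 75 days in G93A-SOD1 cord, against 843 to 1235 on disease-free ones, and thus shared the order of Gfra1 at a brighter signal, from a probe set that can cross-hybridise. Among about 1534 genes compared, 9 to 13 reached an r of 0.95 with each of these 3.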

How the data were processed

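The deposited values are 1 linear intensity for each of 12488 probe sets and 6 arrays. Per the labels' protocols, poly(A) RNA was taken from Trizol-extracted total RNA of 4 spinal cords, and each array received biotin-labelled cRNA in a single hybridisation. The sources used here do not give the authors' probe summary or scaling. Left out were 66 array control probe sets. Of the rest, 10833 had 1 gene symbol, 396 several and 1193 none. RefSeq gene identifiers matched 10817 of the first and changed 0 symbols.

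Intensities under 31.0 (the 25th percentile) were set to 31.0 before the log2 step, and values there have no order. limma 3.58.1 in R 4.3.3 (lmFit, eBayes, Benjamini-Hochberg at 0.05) fitted 4 means: G93A-SOD1 at each age and the pooled disease-free arrays at each age. This left 2 residual degrees of freedom. Additive fits with age served G93A-SOD1 over both ages (3 degrees) and WT-SOD1 against nontransgenic (1 degree, all 4 disease-free arrays). SE is the moderated standard error. Of the 7.13 total degrees of freedom of the 4-mean fit, 5.13 come from the prior over all probe sets, and in the WT-SOD1 fit the prior sets the SE entirely. Simulated arrays with known changes were used to test the scripts' fits.

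The genes, the lists and the tests were chosen with earlier results of these data known. From each list the text may name every gene that passed, otherwise up to 4 tested genes with the largest difference at 110 days, and a few preset genes such as Slc18a3, Gdnf and Nefh. Marker genes under the floor were named after their values were seen, as were Vipr2, Pvalb, Calb2, En1, Foxp1, Lhx3 and Tlx3. The genes of most like pattern are the 3 with the highest r among genes above the floor on all arrays and ranging over at least 0.5 log2 units. Sums over marker lists carry no test.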

Additional observations from a re-analysis of the deposited data

How the results depend on the processing

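In each of the 7 comparisons, 0 of the tested member genes passed under any of the 7 to 14 alternatives run, which changed the filter, floor, scaling, pseudocount, spike-in term or disease-free arrays. The filter on mean level removed Ret. With no filter, Gfra1 stood at 0.34 at 110 days (adjusted p = 0.871) and -0.26 at 75 days (adjusted p = 0.816). Over all alternatives Ache lay between -0.45 and -0.12 at 110 days and between -0.26 and -0.01 at 75 days, with smallest adjusted p-values of 0.105 and 0.283. Ret lay between -0.17 and -0.09 and between -0.42 and -0.27, with smallest adjusted p-values of 0.46 and 0.104. The Ache difference of disease-free cord between ages, -0.06, turned to 0.049 without WT-SOD1 75 days and 0.10 without WT-SOD1 110 days, within a range from -0.23 to 0.10 when single arrays were left out. With single arrays left out, Ncam1 ranged from -0.39 to 0.15 and Gdnf from -0.053 to 0.18 at 110 days, both turning without nontransgenic 110 days. At 75 days Nefh ranged from -0.025 to 0.067, Nkx6-2 from -0.014 to 0.032 and Nrp1 from -0.022 to 0.21, turning without nontransgenic 75 days, and Gfra2 from -0.072 to 0.085, turning without WT-SOD1 75 days. Against nontransgenic arrays only, Nefh was -0.024 and Gfra2 -0.016, and with the spike-in term Nefh was -0.070 and Nkx6-2 -0.019. The causes were not tested. Nefh and Nefl passed at 110 days with the spike-in term (-0.81 and -0.64). That fit had 1 residual degree of freedom and called 266 probe sets. Without WT-SOD1 110 days Nefh and Nefl stood at -0.85 and -0.62, and Lifr at -0.65. Nefl at 75 days stood at -0.71 in the main fit and without either 110-day disease-free array, since that difference uses only 75-day arrays. Counts of calls over all probe sets moved more: 102 at 110 days became 42 with no filter and 591 without WT-SOD1 110 days. At 75 days, 0 became 116 without either 110-day disease-free array. The change with age went between 2 and 135 calls beside 28, G93A-SOD1 between ages 37 and 274 beside 74, disease-free between ages 0 and 17 beside 1, both ages together 0 and 1 beside 0, and WT-SOD1 0 and 7 beside 7. Leaving out an array of the WT-SOD1 comparison left no residual degrees of freedom, so that test was not run. No paired analysis was possible because each genotype and age has 1 array and the labels give no replicate numbers.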
